A study of Mus musculus with 4 samples.

Results

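The genes described here encode 10 proteins of the 53BP1-RIF1 pathway of DNA break repair, namely Atm, H2afx, Mdc1, Rnf8, Rnf168, Trp53bp1, Rif1, Paxip1, Mad2l2 and Fam35a. They were chosen by name, with earlier results of these data known. They are 10 of the 22367 protein-coding genes on chromosomes with RIF1 intervals (mouse build mm9, GENCODE M1 annotation). For each gene, the RIF1 intervals were sought over the gene, within 1 kb on each side of its annotated 5′ end, and in the 200 kb around that end. Intervals under 50 kb, called peaks here, and intervals of 50 kb or more, called wide intervals, were counted separately. Wide intervals were taken to be RIF1-associated domains (RADs), the broad regions that the study called with a separate tool.

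RIF1 occupancy was measured by chromatin immunoprecipitation and sequencing (ChIP-seq) in primary B cells from mouse spleen, isolated with anti-CD43 MicroBeads, activated with LPS (5 µg/ml) and IL-4 (5 ng/ml) and harvested after 72 h. The Rif1FH group (genotype Rif1FH/FH, 2 samples) has a FLAG-HA tag at the N terminus of RIF1, so the tag sits on the product of one of the genes described. The Rif1WT group (C57BL/6, Rif1WT/WT, 2 samples) has untagged RIF1 and was the negative control. Per the study's methods, the tagged and untagged mice were both kept on a C57BL/6 background, and mice of either sex were used. Cells were crosslinked with disuccinimidyl glutarate and formaldehyde, chromatin was sheared to 200 to 600 bp, and an anti-HA antibody was used, although the antibody label names the CD43 beads. Neither the age of the mice nor whether the 2 samples of a group came from separate animals is given.

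The list held 16332 intervals, 16043 peaks and 289 wide intervals, each kept only if called in both Rif1FH replicates. It gives positions with no height, score or value per sample, so depth is unknown, the spread between replicates cannot be given, and no value is set against Rif1WT cells. A gene without an interval is one with none listed, which is not a measure of absence. Counts over the 10 genes are therefore given as descriptions, beside the share of all coding genes that meet the same criterion, and no test was made.

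A double-strand break is first marked by the kinase ATM, which phosphorylates the histone variant H2AX in the chromatin around it. MDC1 binds this mark and brings in the ubiquitin ligases RNF8 and RNF168, whose product on histone H2A is read by 53BP1. Once phosphorylated, 53BP1 recruits RIF1 and PTIP, and RIF1 brings the shieldin complex, which shields the broken ends from resection. Class switch recombination, which LPS with IL-4 induces in B cells, depends on this pathway.

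A peak lay within 1 kb of the annotated 5′ end at 7 of the 10 genes (Atm, Rnf8, Rnf168, Trp53bp1, Rif1, Paxip1 and Fam35a), against 31.9% of all coding genes. The other genes were H2afx and Mdc1, which lay inside wide intervals, and Mad2l2, whose nearest peak was inside the gene. A peak overlapped the gene itself at 6 of 10, against 35.9% of coding genes, since the peaks of Rif1 and Paxip1 lay wholly upstream and that of Mad2l2 counted here. Wide intervals overlapped 2 of 10 genes, against 22.6%. Leaving out genes under a wide interval, 7 of 8 had a peak at the 5′ end, against 40.8% of coding genes. Among members, the criterion of 1 kb fell in a broad gap, as the farthest peak counted ended at -522 bp (the second peak of Fam35a) and, at the genes without a peak there, the nearest lay 9233 bp away (Mad2l2).

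**Figure D1:**
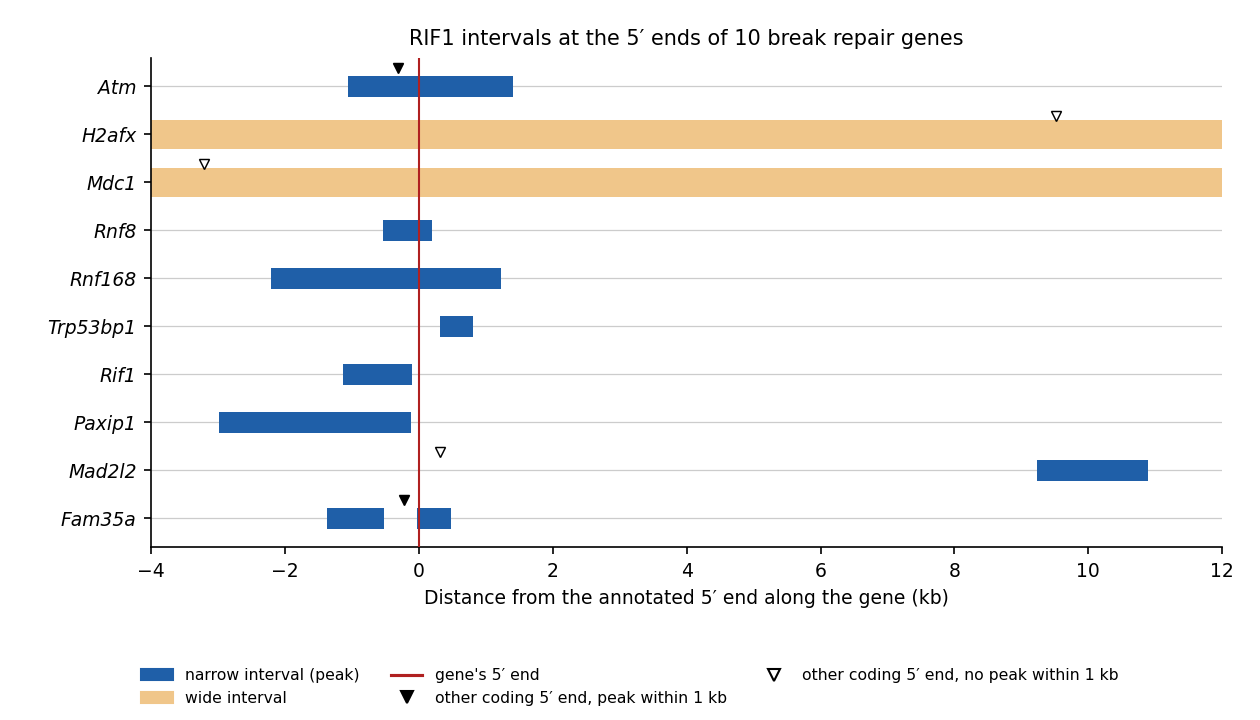
Positions of RIF1 intervals from 4 kb upstream to 12 kb downstream of the annotated 5′ end of each gene (horizontal axis, kb along the gene), with peaks in blue, wide intervals in tan and the 5′ ends of other coding genes as triangles, filled where a peak lies within 1 kb. Peaks cover the 5′ end of Atm, Rnf8, Rnf168 and Fam35a, lie upstream of it at Rif1 and Paxip1, and start 310 bp downstream at Trp53bp1 and 9233 bp downstream at Mad2l2.

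Among coding genes up to 100 kb, the longer classes more often had a peak at the 5′ end, and 7 of the 10 genes were over 20 kb. A peak lay there at 48.8% of coding genes of 50 to 100 kb, the class that holds Atm, Rnf8, Trp53bp1, Paxip1 and Fam35a. The share was 42.1% at 20 to 50 kb (Rnf168 and Rif1), 29.5% at 5 to 20 kb (Mdc1 and Mad2l2) and 13.2% below 5 kb (H2afx). Above 100 kb, where none of the 10 genes falls, it was 46.1%. All 7 genes over 20 kb had a peak at the 5′ end, and none of the 3 shorter genes did. Of the shorter genes, however, H2afx and Mdc1 lay inside wide intervals, where a peak would not be listed apart. Wide intervals also differed by length. They lay over 23.5% of coding genes up to 5 kb, 31.1% at 5 to 20 kb, 21.0% at 20 to 50 kb and 13.7% at 50 to 100 kb. The part of length, or of wide intervals, in the count of 7 was not tested.

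The genes of break signalling were divided between peaks and wide intervals. Atm (ENSMUSG00000034218.8, minus strand, chr9:53247254-53344845, 97.6 kb) encodes the kinase that starts the response. Its peak, chr9:53343435-53345910, was 2476 bp wide and ran from -1065 to +1410 bp of the 5′ end, counted along the gene, with upstream positions negative. Only 13.5% of all peaks were wider. The same peak covered the 5′ end of Npat, the coactivator of histone gene transcription, which starts 307 bp away on the other strand, and took in 759 bp of that gene. The shared peak thus cannot be assigned to one of the pair. Of coding genes with such a head-to-head partner within 1 kb, 57.6% had a peak at the 5′ end, against 29.9% of the others, and Atm and Fam35a are the 2 genes with one here. A second peak in the 200 kb around Atm lay at -73.9 kb, at the 5′ end of Acat1, a mitochondrial thiolase.

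Since its peak lies over the starts of a pair of genes, the 200 bases before Atm (mm9, chr9:53344846-53345045, minus strand) are shown, 5′ to 3′, ending at the base before the annotated 5′ end. All 200 lie inside the peak. Capitals here and in the sequences that follow mark matches to short promoter motifs, here a GC box (GGGCGG, from -127 to -122) and a CCAAT box read on the other strand (from -96 to -92).

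Atm: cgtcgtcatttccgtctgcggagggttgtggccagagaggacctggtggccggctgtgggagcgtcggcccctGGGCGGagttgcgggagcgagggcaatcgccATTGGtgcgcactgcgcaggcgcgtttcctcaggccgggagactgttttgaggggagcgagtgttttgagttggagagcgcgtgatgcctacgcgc

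H2afx (ENSMUSG00000049932.2, plus strand, chr9:44142798-44144154, 1.36 kb), the single-exon gene of histone H2AX, had no peak. It lay inside the wide interval chr9:43812001-44620000, 808 kb wide, at 331 and 477 kb from its edges. Of the 289 wide intervals, 72 were wider. The nearest peak was 490 kb away, and none of the 14 other coding genes that start in the 200 kb around H2afx had a peak at the 5′ end.

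Mdc1 (ENSMUSG00000061607.8, plus strand, chr17:35978460-35996615, 18.2 kb) encodes the adaptor that reads phosphorylated H2AX. It lay inside chr17:31626001-36468000, which at 4842 kb was the widest interval of the list. The edges were 4352 and 490 kb away, the nearest peak was 995 kb away, and none of the 10 other coding genes starting in its 200 kb had a peak at the 5′ end. The wide interval over H2afx held 34 coding 5′ ends (42.1 per Mb) and that over Mdc1 held 212 (43.8 per Mb). Neighbouring intervals of the list overlap in 0 cases, so a peak called inside a wide interval would not be listed apart from it. The lack of a peak at H2afx and Mdc1 therefore says nothing of how RIF1 is distributed within these domains. The pattern of no peak under a wide interval was that of 4968 coding genes (22.2%).

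Both ubiquitin ligases had a peak that covered the 5′ end. Rnf8 (ENSMUSG00000090083.3, plus strand, chr17:29751735-29840304, 88.6 kb) encodes the first ligase recruited by MDC1. Its peak, chr17:29751192-29751931, was 740 bp wide, from -543 to +196 bp, and 85.1% of peaks were wider. Of its 9 annotated transcripts, 5 start inside this peak. A second peak, chr17:29796853-29797384, 532 bp wide, lay 45.4 kb into the gene. Only 1 transcript, Rnf8-006, annotated as subject to nonsense-mediated decay, reaches so far, and without it the gene spans 26.9 kb. This second peak ended 156 bp upstream of the coding transcript Ftsjd2-001 of an mRNA cap methyltransferase gene. As annotated, Ftsjd2 starts at -65.0 kb and spans both peaks of Rnf8. The second peak had the lowest GC content of the peaks over the 10 genes (40.8%).

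Rnf8 was also the one gene with a wide interval near but not over it. The interval chr17:29000001-29700000 (700 kb) ended 51.7 kb upstream of Rnf8 and took up 24.1% of the 200 kb around it. With Rnf8, H2afx and Mdc1, 3 of 10 genes had a wide interval in the 200 kb, against 24.8% of coding genes. The 4 other coding genes that start in the 200 kb around Rnf8 had no peak at the 5′ end.

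Rnf168 (ENSMUSG00000014074.10, plus strand, chr16:32277545-32301520, 24 kb) encodes the ligase that amplifies the ubiquitin mark which 53BP1 reads. Its peak, chr16:32275337-32278778, was the widest at the 5′ ends of the 10 genes, at 3442 bp from -2208 to +1233 bp, and 4.36% of all peaks were wider. All 4 annotated transcripts start inside it. The 200 kb around Rnf168 held 5 peaks, more than at 82.2% of coding genes. Of these, 3 formed a group far upstream, at -99.6, -87.0 and -75.6 kb, with widths of 2268, 2489 and 3190 bp. None of the 3 overlapped an annotated gene or lay within 1 kb of the 5′ end of a transcript. The remaining peak lay at +55.2 kb, at the 5′ end of Ubxn7, an adaptor of the p97 segregase.

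The 200 bases before Rnf8 (mm9, chr17:29751535-29751734, plus strand) and Rnf168 (mm9, chr16:32277345-32277544, plus strand) are shown because both lie wholly inside peaks and share a motif. The letters TTCCCGC, the core of E2F sites, matched from -25 to -19 at Rnf8 and, on the other strand, from -34 to -28 at Rnf168. At Rnf8 this match overlaps a GC box on the other strand (from -22 to -17), and at Rnf168 the capitals nearest the start mark an ETS core (CCGGAAG, from -13 to -7).

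Rnf8: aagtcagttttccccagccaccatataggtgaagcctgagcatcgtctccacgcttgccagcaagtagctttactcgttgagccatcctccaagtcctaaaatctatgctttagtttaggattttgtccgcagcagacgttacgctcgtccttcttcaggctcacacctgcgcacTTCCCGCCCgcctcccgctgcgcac
Rnf168: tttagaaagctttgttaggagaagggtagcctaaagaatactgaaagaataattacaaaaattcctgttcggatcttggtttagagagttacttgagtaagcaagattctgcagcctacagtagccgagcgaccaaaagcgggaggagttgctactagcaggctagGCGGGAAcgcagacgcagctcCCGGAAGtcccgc

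At 53BP1 and its effectors, the listed peaks lay beside the annotated 5′ end rather than over it. The gaps were 111 bp at Rif1, 120 bp at Paxip1 and 310 bp at Trp53bp1. All are below the upper size of the sheared fragments (600 bp), so the edges may not separate a peak beside the end from one over it. At Paxip1 the placement also depends on the gene model, as given below. Among all coding genes with a peak at the 5′ end, the nearest peak covered it at 86.8%, lay upstream at 6.93% and downstream at 6.32%. The peaks of Rif1 and Paxip1 were upstream, that of Trp53bp1 was downstream, and those of Atm, Rnf8, Rnf168 and Fam35a covered the end.

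Trp53bp1 (ENSMUSG00000043909.9, minus strand, chr2:121019017-121097143, 78.1 kb) encodes 53BP1, the reader of modified nucleosomes that holds the pathway together. Its peak, chr2:121096338-121096833, was the narrowest of the set at 496 bp, and 96.4% of all peaks were wider. It ran from +310 to +805 bp, with its midpoint in an intron and 107 bp in annotated exons. None of the 20 annotated transcripts starts inside it, and 8 start within 1 kb of it. The 200 kb around Trp53bp1 held 2 more peaks. One lay at -18.4 kb at the 5′ end of Mtap1a, which encodes a microtubule-associated protein, and the other lay across the window's edge, at the 5′ ends of Tubgcp4 and Zscan29.

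Rif1 (ENSMUSG00000036202.8, plus strand, chr2:51928357-51977903, 49.5 kb) encodes the immunoprecipitated protein itself. Its peak, chr2:51927219-51928246, was 1028 bp wide and ran from -1138 to -111 bp, so that none of it overlapped the gene. The wide intervals were farthest from Rif1, with the nearest 16.3 Mb away. The 200 kb around Rif1 held 4 peaks, and the other 3 lay far upstream. One was at -99.7 kb, at the 5′ end of Nmi, which encodes an interferon-inducible protein, and those at -90.6 and -81.4 kb overlapped no annotated gene.

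Paxip1 (ENSMUSG00000002221.7, minus strand, chr5:28067207-28117879, 50.7 kb) encodes PTIP, the effector that binds phosphorylated 53BP1 apart from RIF1. Its peak, chr5:28117999-28120873, was 2875 bp wide and ran from -2994 to -120 bp. It was the only peak in the 200 kb around Paxip1, where 47.9% of coding genes had more. The placement depends on the gene model. RefSeq starts Paxip1 farther upstream, at -211 bp, and from that start the peak ran from -2783 to +91 bp and thus covered it. At Trp53bp1 the RefSeq start is the annotated one, and for Rif1 no RefSeq promoter was used here. A peak at the 5′ end with none over the gene, as at Rif1 and Paxip1, was seen at 328 coding genes (1.47%), and the pattern of Atm, Rnf8, Rnf168, Trp53bp1 and Fam35a, a peak at the 5′ end and over the gene, at 30.1%.

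The 200 bases before Trp53bp1 (mm9, chr2:121097144-121097343, minus strand) are shown to set the edge of its peak against the sequence. None of them lies inside the peak, and they hold a single GC box, from -91 to -86.

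Trp53bp1: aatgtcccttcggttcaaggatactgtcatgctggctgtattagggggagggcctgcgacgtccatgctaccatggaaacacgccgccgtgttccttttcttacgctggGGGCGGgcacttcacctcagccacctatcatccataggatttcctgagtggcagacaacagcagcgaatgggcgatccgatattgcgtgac

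The shieldin genes had peaks at a start site too, but not both at the outermost one. Mad2l2 (ENSMUSG00000029003.5, plus strand, chr4:147504493-147519808, 15.3 kb) encodes REV7, which links the shieldin subunits and also serves in translesion synthesis. No peak lay within 1 kb of its annotated 5′ end, which lies 314 bp inside the antisense gene 2610109H07Rik. The peak of Mad2l2, chr4:147513726-147515389, 1664 bp wide, ran from +9233 to +10896 bp. Of the 8 annotated transcripts, 5 start inside this peak, 4 of them coding. RefSeq gives Mad2l2 more than one start. The first, at +536 bp, was 8697 bp from the peak, and the second, at +10106 bp, lay inside it. With the 5′ ends of all transcripts in place of the gene's own, 8 of the 10 genes had a peak within 1 kb, against 33.9% of coding genes. A peak over the gene but not at its 5′ end, as at Mad2l2, was seen at 1194 coding genes (5.34%).

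The surroundings of Mad2l2 were the most crowded of the set. The 200 kb around it held 7 peaks, and 4.27% of coding genes had more. Peaks at -59.8 and -55.0 kb lay at the starts of the noncoding genes Gm13202 and Gm13201, that at -42.5 kb lay at the start of Agtrap, and those at -15.0 and +33.6 kb lay inside 2610109H07Rik and Fbxo2, away from annotated starts.

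Fam35a (ENSMUSG00000041471.7, minus strand, chr14:35050227-35123689, 73.5 kb), now Shld2, encodes the shieldin subunit that binds single-stranded DNA. It had 2 peaks within 1 kb of its 5′ end. The first, chr14:35123212-35123719, was 508 bp wide, from -30 to +477 bp, and the second, chr14:35124211-35125067, was 857 bp wide, from -1378 to -522 bp. The gap of 491 bp between them held the 5′ end of Glud1, the gene of mitochondrial glutamate dehydrogenase, which starts 224 bp away on the other strand. That end lay 194 bp from one peak and 298 bp from the other, so neither peak covered it. No other peak lay in the 200 kb around Fam35a. Of coding genes with a peak at the 5′ end, 2.68% had more than one.

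The 200 bases before Fam35a (mm9, chr14:35123690-35123889, minus strand) are shown because they lead from the first peak toward the start of Glud1. The last 30 lie inside the first peak, and a pair of adjoining GC boxes, from -87 to -76, lies in the gap.

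Fam35a: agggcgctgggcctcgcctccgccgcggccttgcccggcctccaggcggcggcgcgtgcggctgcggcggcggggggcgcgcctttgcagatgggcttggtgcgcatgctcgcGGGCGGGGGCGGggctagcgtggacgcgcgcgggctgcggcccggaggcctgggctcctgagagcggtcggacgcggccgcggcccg

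The wider surroundings of the 10 genes differed from one gene to the next. A peak lay in the 200 kb around 8 of 10, against 59.6% of coding genes, and around all 8 genes with no wide interval over them, against 75.2%. In order, the windows held 7 peaks at Mad2l2, 5 at Rnf168, 4 at Rif1, 3 at Trp53bp1, 2 at Atm, Rnf8 and Fam35a, 1 at Paxip1 and 0 at H2afx and Mdc1. The median was 2, against 1 for all coding genes (quartiles 0 and 4), or 2.5 against 2 without genes under a wide interval. The windows held 26 different peaks in all, of which 15 lay within 1 kb of a coding 5′ end. These 15 include the 8 peaks at the 5′ ends of the 10 genes themselves. The share among all peaks is not given here, so the count of 15 is a description only. The median distance from the 5′ end to the nearest peak was 116 bp for the 10 genes and 41.1 kb for coding genes, or 55.5 bp and 11.9 kb without genes under a wide interval.

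**Figure D2:**
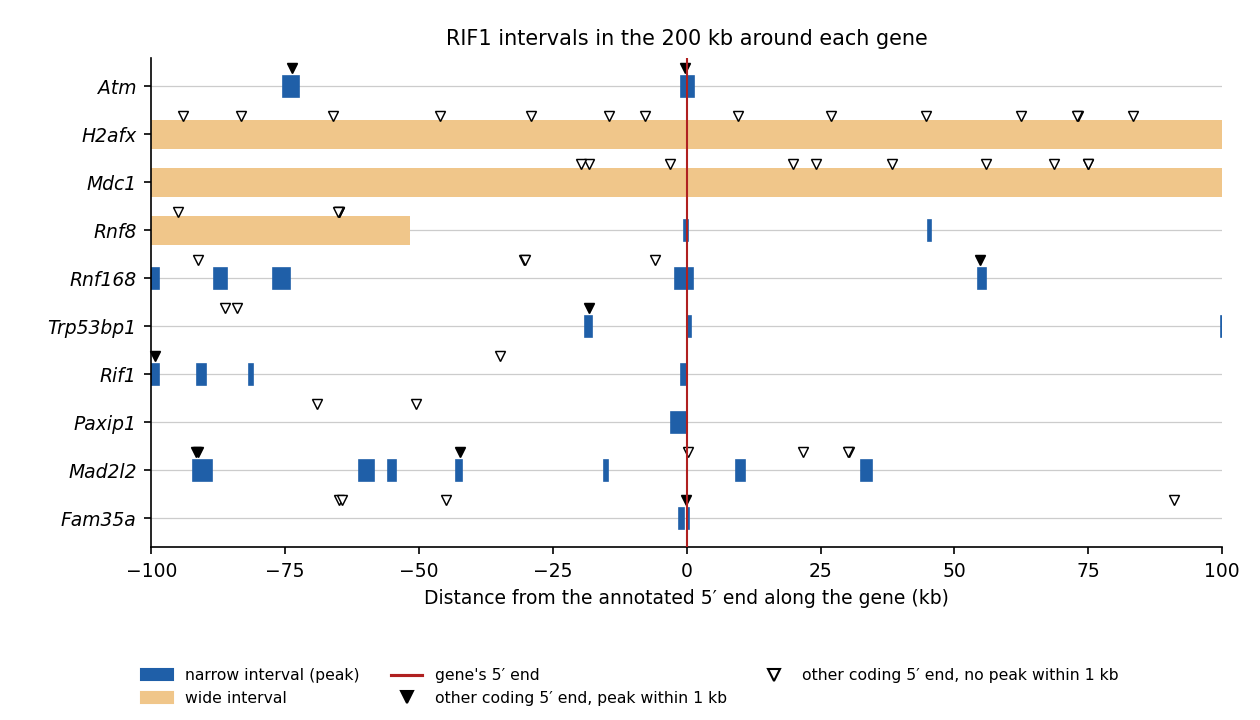
Positions of RIF1 intervals in the 200 kb around the annotated 5′ end of each gene (horizontal axis, kb along the gene), with peaks in blue, wide intervals in tan and other coding 5′ ends as triangles, filled where a peak lies within 1 kb; peak outlines add a little to the drawn width. Wide intervals fill the windows of H2afx and Mdc1 and 24.1% of that of Rnf8, and the far upstream peaks of Rnf168 and Rif1 lie away from filled triangles except at Nmi.

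**Figure D3:**
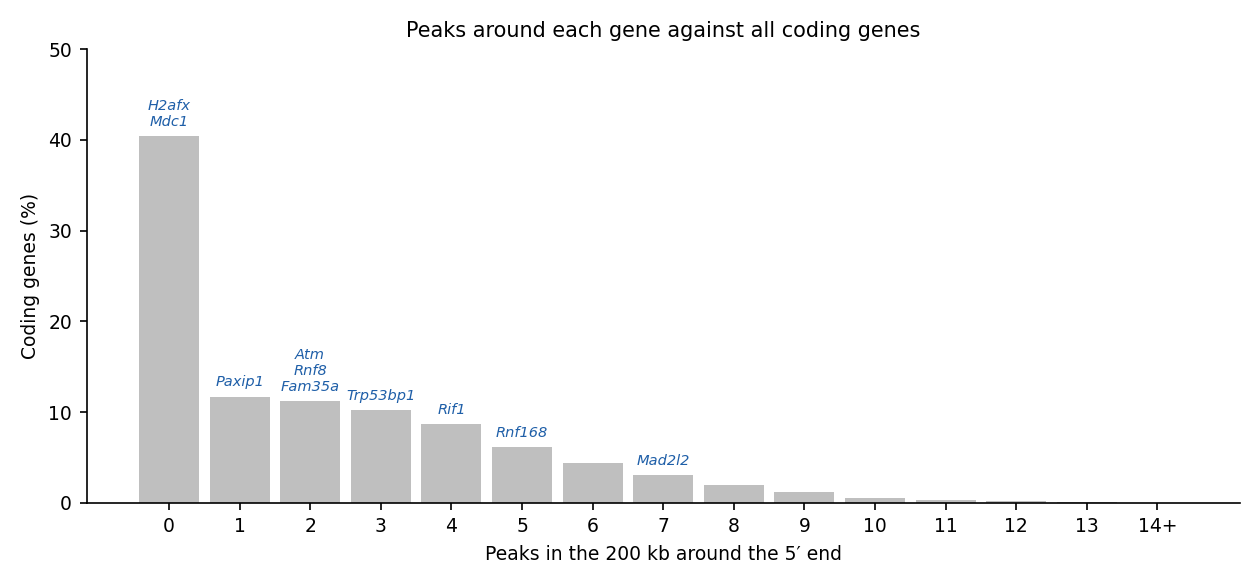
Share of the 22367 coding genes (vertical axis, %) by the number of peaks in the 200 kb around the 5′ end (horizontal axis), with the names of the 10 genes above the bar they belong to. H2afx and Mdc1 stand at 0 peaks and Mad2l2 at 7, which 7.34% of coding genes reach or pass.

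The widths of the peaks at the 5′ ends ranged from 496 bp at Trp53bp1 to 3442 bp at Rnf168. Their median over 8 peaks was 942 bp, against 1592 bp for the nearest peak at coding genes with one and 1365 bp for all peaks. Atm, Rnf168 and Paxip1 had peaks above that last median, and Rnf8, Trp53bp1, Rif1 and Fam35a had peaks below it. Width here is that of a merged call, and the signal behind it is not known.

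The base composition of the peaks also varied. GC content was highest in the peak over the Fam35a start (61.0%) and lowest at the 5′ ends in that of Paxip1 (46.5%). Between them lay the second Fam35a peak (55.8%) and those of Rnf8 (55.0%), Atm (54.4%), Trp53bp1 (53.8%), Rif1 (50.4%) and Rnf168 (50.0%), and the inner peak of Mad2l2 had 56.0%. All peaks had a median of 50.3% (quartiles 46.5 and 55.3%).

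The 200 bases upstream of the 5′ end were rich in CpG at the 9 genes examined (all but Rif1), with or without a listed peak. The ratio of observed to expected CpG ran from 0.742 at Mad2l2 to 1.06 at Fam35a, with 0.929 at H2afx and 0.962 at Mdc1. The median was 0.768 at coding genes with a peak at the 5′ end (quartiles 0.581 and 0.923) and 0.340 at those without (quartiles 0.137 and 0.674). H2afx, Mdc1 and Mad2l2, without such a peak, thus lay above the upper quartile of the class they belong to. That class includes genes under wide intervals, as H2afx and Mdc1 are, where a peak would not be listed apart. It is therefore not a class shown to lack RIF1. At Mad2l2 these bases precede the outermost start and not the starts inside its peak. GC content of these bases was highest at Fam35a (82.5%) and Paxip1 (75%) and lowest at Rnf168 (47.5%). At Paxip1 all 200 bases lie downstream of the RefSeq start, so by that model they are transcribed.

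**Figure D4:**
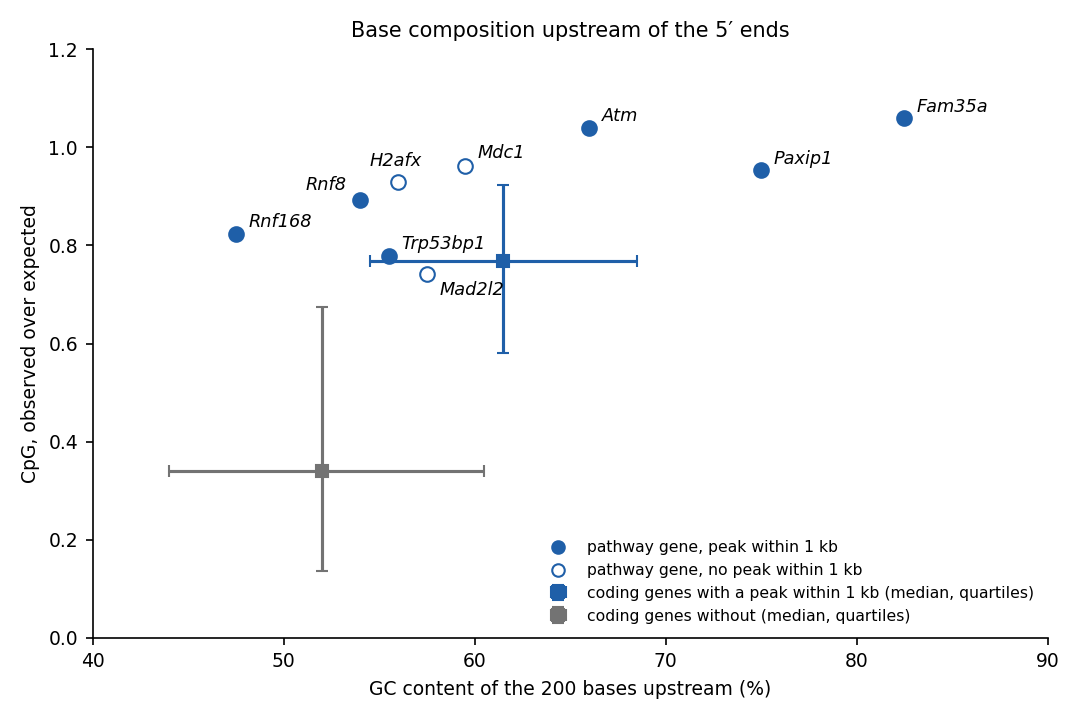
GC content (horizontal axis, %) against the ratio of observed to expected CpG (vertical axis) in the 200 bases upstream of the annotated 5′ end, for each of the 9 genes examined (circles, filled with a peak within 1 kb) and for coding genes with and without such a peak (squares, median with quartiles). All 9 genes lie above 0.674, the upper quartile of coding genes without a listed peak, a class that includes genes under wide intervals. The bases of Paxip1 lie downstream of its RefSeq start.

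Of 9 motifs searched on both strands in these 200 bases, the GC box of Sp1 and KLF factors (GGGCGG) was before 5 of the 9 genes, Atm, Rnf8, Trp53bp1, Paxip1 and Fam35a, and in 38.0% of all coding windows (57.7% of those with a peak at the 5′ end). The CCAAT box (CCAAT) of NFY was before Atm, H2afx and Mdc1, and in 30.6% of windows. The E2F core (TTCCCGC) was before Mdc1, Rnf8 and Rnf168, against 3.97% of windows and 6.51% of those with a peak. The ETS core (CCGGAAG) was before Rnf168 (7.58% of windows), and the TATA box (TATAAA) before H2afx (10.1%). No match was found for the NRF1 core CGCATGCG (1.70% of windows), the CRE TGACGTCA (1.83%), the E box CACGTG (5.58%) or the YY1 core GCCATNTT (2.99%). A match is a run of letters and not a site shown to be bound. The match before Paxip1 lies downstream of its RefSeq start.

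A wider list of 43 break repair genes, none of them among the 10, was set beside them by role. A peak lay at the 5′ end of 23 of the 43 (53.5%), against 31.9% of coding genes. That share, also used for the role groups below, is over coding genes of all lengths. It was 42.1% at 20 to 50 kb, 48.8% at 50 to 100 kb and 46.1% above 100 kb. The list holds long genes, such as Herc2, Pola1, Prkdc and Xrcc4, all over 100 kb. The part of length in these counts was not tested. A wide interval lay over 11, a share close to the 22.6% of coding genes, and 10 had neither. Of the 32 with no wide interval, 22 had a peak at the 5′ end, against 40.8%. The peak covered the 5′ end at 20 of the 23, a share like the 86.8% of coding genes with a peak there, and its median width was 1630 bp, against 1592 bp.

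**Figure D5:**
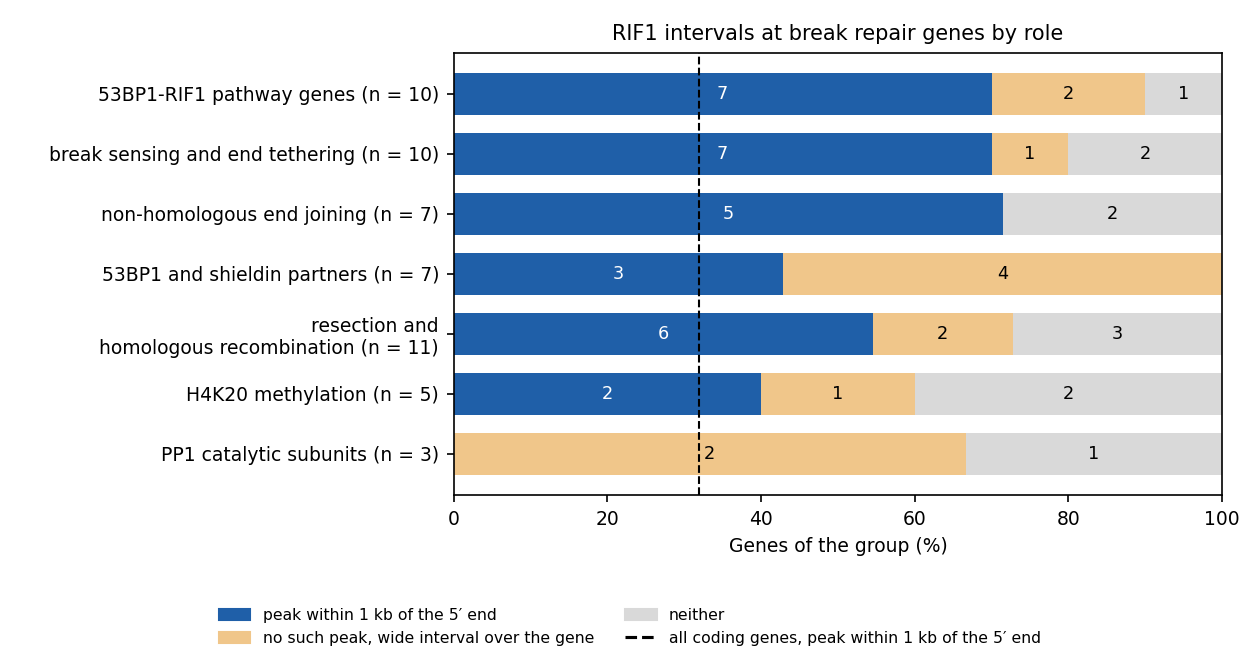
Share of genes (horizontal axis, %) with a peak within 1 kb of the 5′ end, with a wide interval and no such peak, or with neither, for the 10 genes described and the 6 role groups of the wider list, with numbers of genes in the bars and the share of all coding genes with a peak as a dashed line (31.9%). A peak lies at the 5′ end of 5 of 7 genes of end joining and of 0 of 3 genes of PP1, of which 2 lie under wide intervals.

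In the group listed as break sensing and end tethering, which also holds genes that act beside 53BP1, 7 of 10 genes had a peak at the 5′ end. That is 70.0%, against 31.9% of coding genes. The widest were at Rad50 (2776 bp), of the MRE11 complex that activates ATM, and at Herc2 (2300 bp), a ligase that works with RNF8. No peak lay there at Rnf169, a reader that competes with 53BP1 (nearest 110 kb away), at Brcc3, the deubiquitinase of the BRCA1-A complex (33.8 kb), or at Fam175a, its scaffold, which lay under a wide interval of 434 kb.

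Among 5 genes of histone H4K20 methylation, which makes the other mark that 53BP1 reads, 2 had a peak at the 5′ end, the methyltransferase genes Suv420h1 (2723 bp) and Whsc1 (905 bp). Setd8, the monomethyltransferase, had its nearest peak 4.67 kb into the gene, and L3mbtl1, a reader of the mark, had it 11.7 kb away. Suv420h2 lay under a wide interval of 756 kb.

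The 7 partners of 53BP1 and shieldin were split between peaks and wide intervals. A peak lay at the 5′ end of 3 (42.9%, near the 31.9% of coding genes). A wide interval lay over 4, against 22.6% of coding genes, and a peak inside one would not be listed apart. Peaks lay at the 5′ ends of Obfc1 (2969 bp), a subunit of the CST complex that shieldin recruits, Pola1 (1608 bp), the polymerase that CST brings, and 1110034G24Rik (829 bp), the shieldin subunit Shld1, which is named in addition to the rule. Wide intervals covered the other CST genes, Ctc1 (2008 kb) and Ten1 (3880 kb), as well as Nudt16l1 (440 kb), whose product TIRR masks 53BP1, and Dynll1 (1144 kb), a 53BP1-binding dynein light chain. RIF1 also binds the phosphatase PP1. Of its 3 catalytic subunit genes 0 had a peak at the 5′ end, with Ppp1ca (440 kb) and Ppp1cc (410 kb) under wide intervals and the nearest peak to Ppp1cb 31.1 kb away.

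Of 7 genes of non-homologous end joining, 5 had a peak at the 5′ end (71.4%, against 31.9% of coding genes). Length was not matched, and Prkdc and Xrcc4 are over 100 kb, a class with a share of 46.1%. The widest were at Lig4 (3376 bp), the ligase, and Prkdc (2007 bp), the DNA-dependent kinase. The exceptions were Xrcc6, encoding Ku70, with its nearest peak 26.6 kb upstream and 1 peak inside the gene, and Nhej1, encoding XLF, with its nearest peak 27.9 kb away and none in the gene. Among 11 genes of resection and homologous recombination, which 53BP1 and RIF1 oppose, 6 had one (54.5%). The widest were at Bard1 (3109 bp), the partner of BRCA1, and Dna2 (2014 bp), a resection nuclease. Blm, a helicase, had a peak at the 5′ end and was also met by a wide interval of 468 kb. Rbbp8, encoding CtIP, had its nearest peak inside the gene, 23.1 kb from the 5′ end. Brca1 had no peak nearer than 74.6 kb and Palb2 none nearer than 25.8 kb, while Brca2 (2274 kb) and Parp1 (900 kb) lay under wide intervals.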

How the data were processed

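Per the study's methods and the submitters' processing notes, the authors trimmed reads with Trim Galore 0.6.4 and aligned them to mm9 with Bowtie 1.0.0, keeping unique alignments. They called narrow and broad peaks in each replicate with MACS2 2.2.6 and domains with EDD, merged all with bedtools 2.27.1 and kept what both Rif1FH replicates had. Reads that align to several places were thus not kept, although an interval may span repeated sequence. The calling threshold and the use of Rif1WT or input reads in calling are not given in the sources used here. The deposited file holds chromosome, start and end only, pooled over both samples, with no signal, and deepTools 3.3.0 tracks were not used here.

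Positions are given from 1 and were used as listed, including 1 interval past the end of its chromosome. No interval had a width between 14.8 kb (a peak) and 90.0 kb (a wide interval). Overlap meant at least 1 bp. Distances run from the 5′ end to the nearest edge of a peak and are 0 where it covers the end. The 200 kb window reached 100 kb upstream and 100 kb downstream of that end. Coding genes on chromosomes without intervals (13) were left out. The overlap functions were tested on simulated data. Start sites and promoters of RefSeq (build GRCm38.p6) were found for 7 of the genes and placed on mm9 by exact match of their sequence, and no coordinates of that build were used. The 200 bases before 5′ ends were read from the mm9 genome, and shown for 5 genes with a peak there. Paxip1 was left out after its values were seen, since a RefSeq model transcribes these bases, and those of Rif1, with 1 locus near Mad2l2, are not reported here. Ctc1 and Ten1 were matched through RefSeq synonyms as 1500010J02Rik and 2310004N24Rik.

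The 10 genes, the lists of 43 genes and 9 motifs and the criteria were chosen with earlier results of these data known. All 10 genes are named. Of the 43, those without a peak at the 5′ end, those meeting a wide interval and those with the 2 widest peaks of their role are named, and other genes where they lie at a peak described. Computation used Python 3.11.15, numpy 2.4.6 and matplotlib 3.10.9.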

Additional observations from a re-analysis of the deposited data

How the results depend on the processing

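No paired analysis was possible because no value per sample is in the list, although both groups number their replicates alike, and for the same reason no replicate could be left out. Of 31 alternatives to 6 results, 21 stayed within 1.5 times the value reported. The count of 7 genes with a peak at the 5′ end became 4 (Atm, Rnf8, Rnf168 and Fam35a) with 0.1 kb on each side, against 28.6% of coding genes. With only peaks of at least the median width, it became 3 (Atm, Rnf168 and Paxip1), against 20.3%. With those peaks, the count of genes overlapped became 3, against 23.7% of coding genes, the median number of peaks in 200 kb became 1, against 0, and the median distance to a peak 53734 bp, against 101158 bp for coding genes. The median number became 7.5 with 200 kb, and 4 with 100 kb, added on each side of the gene, against 3 and 2 for coding genes. The median distance of 116 bp became 592 bp to the midpoint (41790 bp for coding genes) and 55.5 bp from the nearest 5′ end of any transcript (36065 bp). With wide intervals counted it became 0 bp, and that of coding genes 25 bp, so little difference was left. The count of 2 genes under a wide interval, and that of 23 of the wider list, stayed within that range under every alternative run for them. Depth, and so the peaks that could be called, is unknown.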
